A study of Mus musculus with 32 samples.

Results

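Addition of necrostatin-1 (Nec-1), an inhibitor of the kinase RIPK1, to IFNβ plus zVAD was examined in bone marrow-derived macrophages (BMDMs) from Ifnar1-/- mice, which lack a chain of the type I interferon receptor. The members were the 2 arrays of Ifnar1-/- cells given IFNβ, zVAD and Nec-1 and the 2 arrays of Ifnar1-/- cells given IFNβ and zVAD, 4 of the 32 arrays of the series. Macrophages had been grown from mouse bone marrow with M-CSF, WT mice being C57BL/6, and RNA was taken 6 h after treatment. WT and Ifnar1-/- cells were each left untreated or given IFNβ (1000 U/mL), zVAD, LPS (100 ng/mL), LPS plus zVAD, LPS plus zVAD plus Nec-1, IFNβ plus zVAD, or IFNβ plus zVAD plus Nec-1, with 2 arrays per group. All cells of both groups compared here therefore carried the Ifnar1 deletion and received IFNβ and zVAD, and by their labels the groups differed in Nec-1 only. Their arrays also differed in position on the slide. The doses are those of the sample labels, and the study's methods and legends give others. There was no group given Nec-1 alone, so Nec-1 was measured only on top of zVAD. The labels name Necrostatin-1, whereas the study's reagent list names a chlorinated analogue of it, and which was used cannot be told apart here.

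Necroptosis is a lytic cell death in which RIPK1 and RIPK3 assemble and RIPK3 phosphorylates MLKL, which breaks the plasma membrane. zVAD blocks the caspases, including caspase-8, that otherwise cut RIPK1 and RIPK3, and RIPK1 kinase activity in caspase-blocked macrophages also drives inflammatory transcripts such as Tnf. IFNβ signals through a receptor that needs the IFNAR1 chain, so cells without it cannot answer the cytokine directly. Nec-1 is also known to inhibit the tryptophan-degrading enzyme IDO, an activity that its chlorinated analogue lacks.

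The label of the cells was checked first. The Ifnar1 probe gave log2 normalized intensities of 11.13 to 12.44 on the Ifnar1-/- arrays and of 9.04 to 14.77 on the WT arrays, so the genotypes overlapped on it, and whether it lies within the deleted part is not known. Ifit3, an interferon-stimulated gene, read 5.99 and 6.14 with IFNβ in Ifnar1-/- cells and 17.86 and 17.80 in WT cells. IFNβ alone changed 0 of 15970 genes in Ifnar1-/- cells (limma, 0% called; 251 genes at an unadjusted p under 0.05). All 11 measured macrophage markers were above background on all 4 arrays, and their log2 summed intensity was between 20.01 and 20.10. Between 44.5% and 78.1% of probes were well above background on an array, and Ifnar1-/- IFNβ+zVAD+Nec-1 replicate 1 was the lowest of the 32. That array was also the noisiest. The SD of its negative controls was 7.72, and the next highest was 4.98. The median coefficient of variation of its replicate probes was 20.1%, and the next highest was 16.4%. One other library went against its label. Ifnar1-/- LPS+zVAD+Nec-1 replicate 2 had Tnf at 9.99 against 15.96 in its replicate 1, and its correlation over genes was 0.993 with Ifnar1-/- IFNβ+zVAD+Nec-1 replicate 2 and 0.924 to 0.937 with the Ifnar1-/- LPS and LPS+zVAD arrays. It was no member of either group compared, but it entered the shared estimate of the spread, and the lists and genes below whose calls changed when its group was left out are given both ways.

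In Ifnar1-/- cells given IFNβ and zVAD, Nec-1 changed 257 of 15970 genes (limma, adjusted p under 0.05 by the Benjamini-Hochberg method; 1.61% called), of which 170 rose (1.06%) and 87 fell (0.545%). The largest rises were in Jaml, a junctional adhesion molecule of leukocytes, Ddit4, an inhibitor of mTORC1, Fkbp5, a co-chaperone of the glucocorticoid receptor, and Zbtb16, a zinc finger repressor, at log2 fold changes of 4.82 to 6.29. Egr2, an immediate early transcription factor, and Tnip3, an inhibitor of NF-κB signalling, were above background on all 4 arrays and fell by 3.46 and 3.40 on the log2 scale. Within replicate 1 and replicate 2, each pair on its own slide, the medians were 1.81 and 1.79 for the genes that rose and -1.78 and -1.64 for those that fell, which describes arrays that also made the calls. When both LPS+zVAD+Nec-1 arrays of Ifnar1-/- cells were left out, 511 genes were called (3.2%), 295 higher (1.85%) and 216 lower (1.35%), and these held all 257. The count fell to 39 without Ifnar1-/- IFNβ+zVAD replicate 2 and to 34 without Ifnar1-/- IFNβ+zVAD+Nec-1 replicate 1. Since arrays measured whole cultures, fewer cells of a state and less RNA per cell cannot be told apart.

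**Figure D1:**
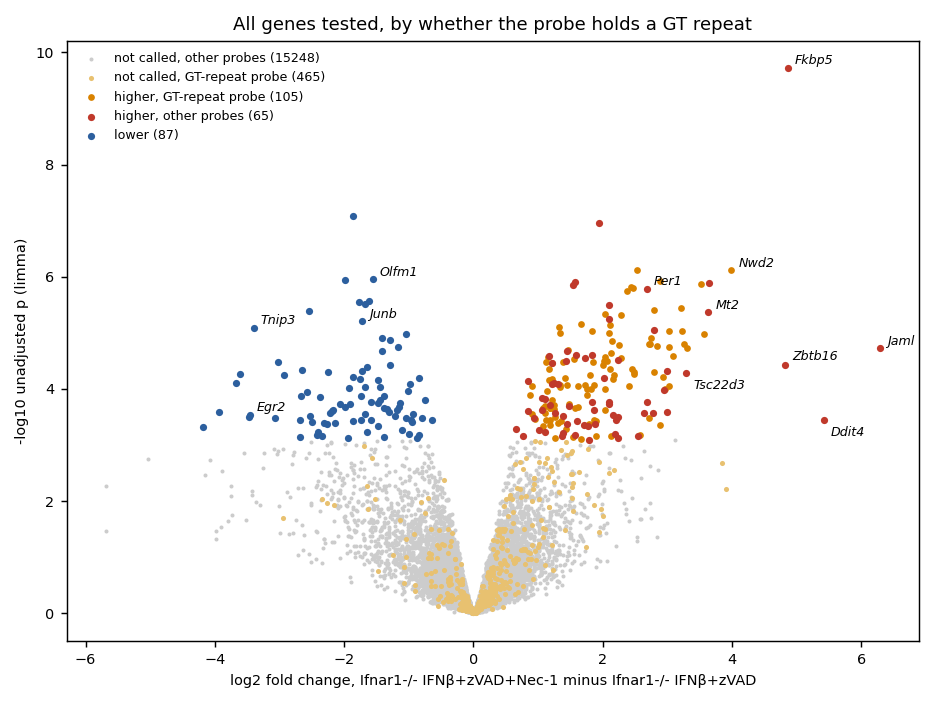
Each point is 1 of the 15970 genes, placed by its log2 fold change with Nec-1 in Ifnar1-/- IFNβ+zVAD cells and by the -log10 of its unadjusted limma p, and coloured by whether it was called and whether its probe holds a GT repeat. Of the 170 genes called higher, 105 lie on GT-repeat probes (orange) and 65 on other probes (red), and Fkbp5 has the lowest p.

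The genes that rose fell into 2 sets by the sequence of the probe that measured them. For 105 of the 170 (61.8%) the 60-base probe held the letters GTGTGT, which were present in the probes of 571 of all 15970 genes (3.58%). Of those 571 genes 18.4% were called higher and 1 gene was called lower, whereas 65 of the other 15399 genes (0.422%) were called higher. With the longer run of GTGTGTGT, 92 of 183 genes (50.3%) were called higher. For other simple repeats the counts were 2 of 367 genes with CACACA in the probe, 6 of 420 with GAGAGA and 8 of 298 with TATATA. The probes of 4 such genes are shown because each gene also had a probe without the repeat on the array. The first line of each pair is the probe with the repeat and the second is the other probe. Each shows 30 of the 60 bases, 5′ to 3′, with alternating G and T runs that hold GTGTGT in capitals, and positions are those of the array design on mm9. Whether a probe lies in an exon or a UTR was not analysed here.
Armcx3, chrX:131295418-131295477, plus strand, bases 30 to 59: gattacatatTGTGTGTGTgaGTGTGTGTG
Armcx3, chrX:131294455-131294514, plus strand, bases 16 to 45: acatgtcgcattttattttgctgcccacat
Nhlh1, chr1:173987638-173987697, minus strand, bases 15 to 44: gGTGTGTGTatgtatgtgtgagtgtgggtg
Nhlh1, chr1:173982907-173982966, minus strand, bases 16 to 45: caccaaactcctagctctacaaggatattt
Npcd, chr15:79616822-79616881, minus strand, bases 1 to 30: tgtatgtgtgagtgcGTGTGTGatctgtgc
Npcd, chr15:79620136-79620195, minus strand, bases 16 to 45: cctttggaggtgcgaagaaggccgcctttg
Knop1, chr7:125985766-125985825, minus strand, bases 1 to 30: GTGTGTaTGTGTGTGTgagacttaataact
Knop1, chr7:125989274-125989333, minus strand, bases 16 to 45: gtctatcaagttgcaagattaaatattatt

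The 2 probes of a gene gave different changes. The Armcx3 probe with the repeat read 15.83 and 15.35 with Nec-1 and 12.19 and 11.95 without it, a difference of 3.52 (SE 0.50), and the other Armcx3 probe read 11.08 and 11.13 against 11.79 and 11.74, a difference of -0.66 (SE 0.23). The corresponding pairs of differences were 3.22 and 0.53 for Nhlh1, 3.21 and -0.09 for Npcd, and 2.47 and -0.02 for Knop1. The second probes of Nhlh1 and Npcd were dim, at 5.42 to 7.01 and 5.59 to 6.61, so their small differences say little. The second Knop1 probe was brighter, at 11.69 and 11.77 with Nec-1 and 11.83 and 11.67 without. Of the 105 genes, 37 had another retained probe without the repeat. Their 46 other probes had a median log2 fold change of -0.02 (range -0.73 to 1.18), and 19 of these were above 0, against a median of 1.85 for the repeat probes of the same genes. For the 65 genes called on a probe without the repeat the second probes moved with the first, as 20 of 23 other probes of 16 genes were above 0, with a median of 1.12.

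The level of the repeat probes differed between arrays as a group. The median log2 intensity of the 183 probes with GTGTGTGT was 15.54 and 15.07 with IFNβ+zVAD+Nec-1 and 13.98 and 13.64 with IFNβ+zVAD in Ifnar1-/- cells, while that of the other probes stayed between 9.61 and 9.95 on all arrays. The 12 Ifnar1-/- arrays without Nec-1 lay between 13.54 and 14.16, and the 2 LPS+zVAD+Nec-1 arrays of that genotype read 14.30 and 15.04. In WT cells the untreated and zVAD arrays lay between 14.15 and 14.84 and the other WT arrays between 15.30 and 16.48, with or without Nec-1. What these probes bound was not tested. Each treatment had a fixed position on the slide, so treatment and position cannot be told apart. Nwd2 (log2 fold change 3.99), Hoxd13 (3.57), Armcx3, Hivep3 (3.30) and Nhlh1, named because they were among the 12 largest rises, were measured by such probes.

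**Figure D2:**
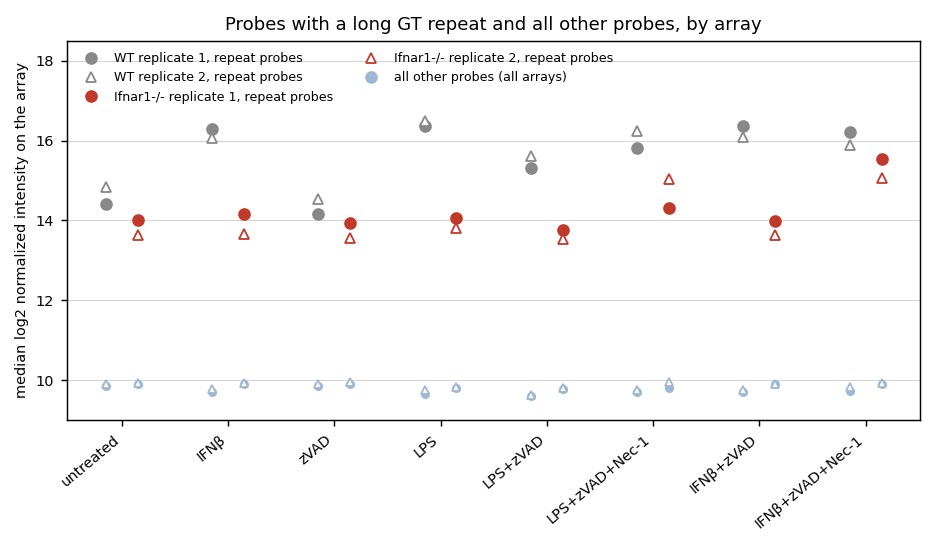
Median log2 normalized intensity of the 183 probes with a long GT repeat (red and grey) and of all other probes (blue) on each of the 32 arrays, by treatment, with 1 symbol per array. Both Ifnar1-/- IFNβ+zVAD+Nec-1 arrays (15.54 and 15.07) lie above the 12 Ifnar1-/- arrays without Nec-1 (13.54 to 14.16), and the blue points stay between 9.61 and 9.95.

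The remaining 65 genes that rose included genes of the glucocorticoid response. Of 8 listed genes, all measured, 5 rose, none fell and 7 had a positive sign, with a median log2 fold change of 2.38 against 0.02 for all genes. Among all genes 1.06% rose. Fkbp5 read 15.04 and 15.31 with Nec-1 and 10.47 and 10.16 without it. The Nec-1 arrays lay far above, since the 12 Ifnar1-/- arrays without Nec-1 spanned 9.68 to 10.59 and the 16 WT arrays 10.07 to 11.53. The log2 fold change was 4.86 (SE 0.39, adjusted p = 3.02e-06; probe at chr17:28536060-28536119), and Fkbp5 passed the test in all 17 fits that were run. Tsc22d3, which encodes the glucocorticoid-induced leucine zipper GILZ, an inhibitor of NF-κB and AP-1, read 16.09 and 16.51 against 12.72 and 13.30 (3.29, SE 0.63, adjusted p = 0.00919). Zbtb16 read 12.13 and 12.44 against 7.41 and 7.52 (4.82, SE 0.90, adjusted p = 0.00764). Over all genes, both Nec-1 arrays lay above both arrays without it in 24.1% and below them in 20.4%. In each of these genes the groups did not overlap, and no Ifnar1-/- array without Nec-1 reached the Nec-1 arrays.

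Per1, a circadian repressor that glucocorticoids also induce, read 14.60 and 14.42 with Nec-1 and 11.77 and 11.90 without (2.68, SE 0.39, adjusted p = 0.00175). A second retained Per1 probe, dimmer than the first, did not show this rise, with a log2 fold change of -0.14 (SE 0.24). Klf9, a Krüppel-like repressor, read 13.27 on both Nec-1 arrays and 11.36 and 11.00 without (2.09, SE 0.45, adjusted p = 0.0197). The 3 other listed genes did not pass: Sgk1, a kinase, had a log2 fold change of 0.32, Cebpd, a C/EBP factor, of 0.12, and Nr3c1, the glucocorticoid receptor itself, of -0.38. With IFNβ alone Fkbp5 read 10.36 and 10.20 and Per1 read 11.65 and 11.95. The comparison of zVAD with IFNβ alone, which shares the IFNβ+zVAD arrays with the Nec-1 comparison, gave a median of 0.03 for the list. The median of the list across alternative settings was 1.68 to 2.48.

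**Figure D3:**
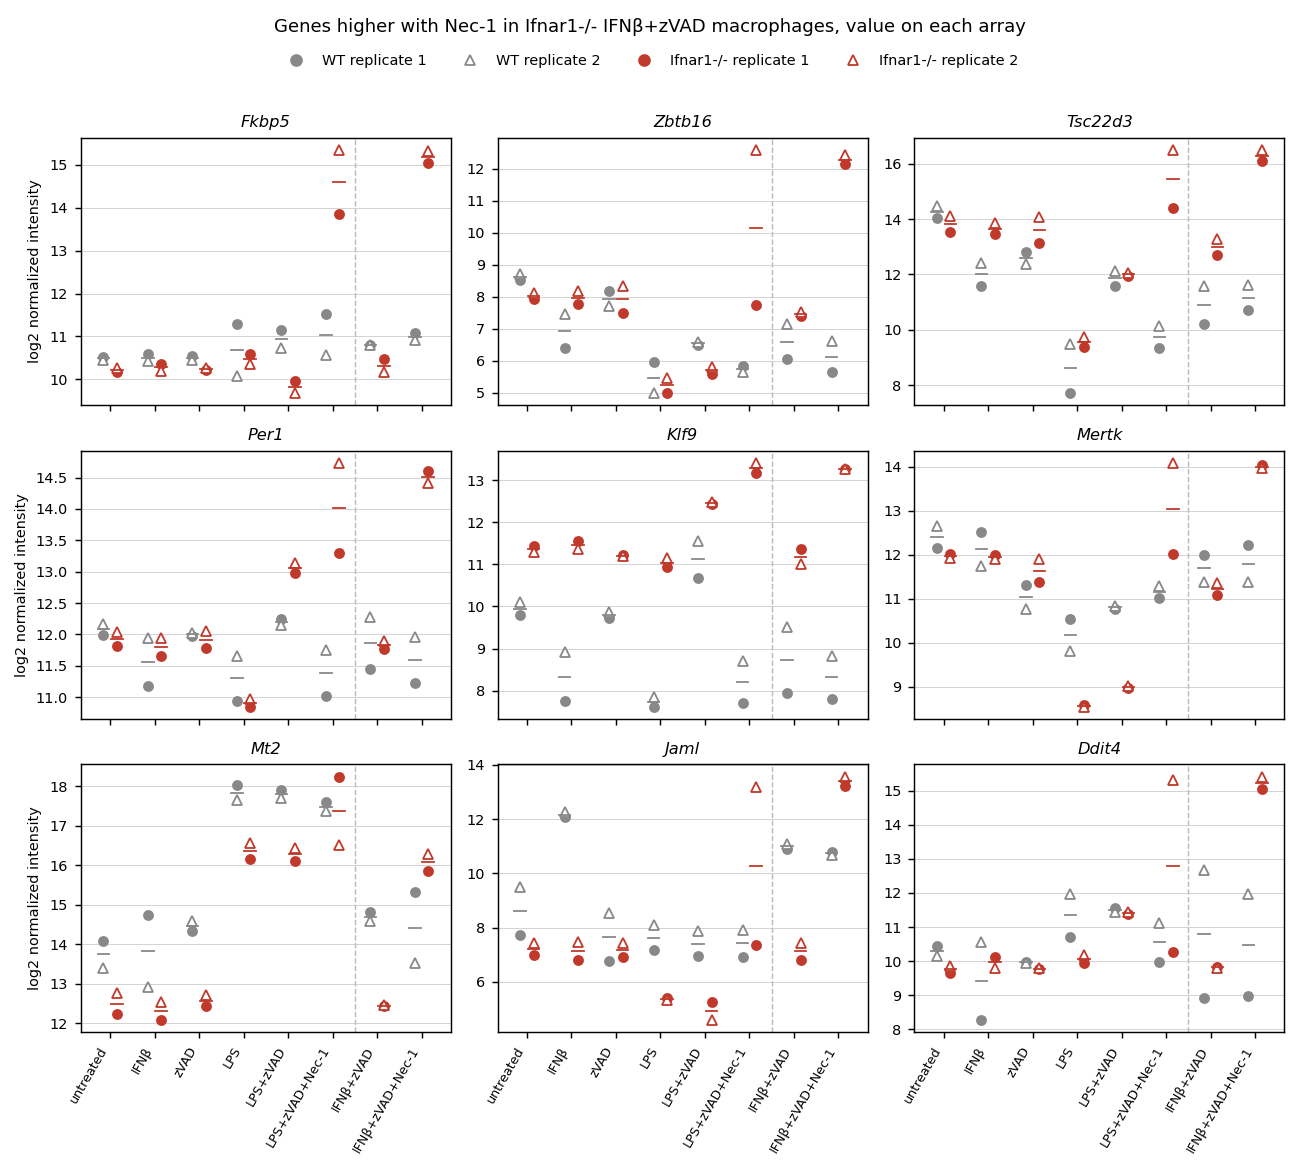
Log2 normalized intensity of 9 genes that rose with Nec-1 in Ifnar1-/- IFNβ+zVAD cells, by treatment, with WT in grey and Ifnar1-/- in red, replicates 1 and 2 as filled circles and open triangles, and bars at the mean of 2 arrays. The Ifnar1-/- IFNβ+zVAD+Nec-1 arrays at the right stand above the Ifnar1-/- IFNβ+zVAD arrays in every panel, as in Fkbp5 (15.04 and 15.31 against 10.47 and 10.16), and Ifnar1-/- LPS+zVAD+Nec-1 replicate 2 (triangle) lies near them.

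The metallothioneins Mt1 and Mt2, small cysteine-rich proteins that bind zinc and are induced by metals and by glucocorticoids, rose together. Mt2 read 15.86 and 16.30 with Nec-1 and 12.44 and 12.47 without (3.63, SE 0.57, adjusted p = 0.00286). Mt1 read 17.38 and 17.54 against 15.96 and 16.08 (1.44, SE 0.26, adjusted p = 0.00607). Both Nec-1 arrays were above both others for each gene, but unlike Fkbp5 these genes were as high elsewhere, since Mt2 reached 16.57 on the Ifnar1-/- arrays without Nec-1 and 18.03 on WT arrays, with the LPS groups the highest. Mt3 (0.03) and Mt4 (-0.69) did not pass. The promoters of Mt1 and Mt2 (RefSeq, GRCm38.p6, 250 bases before to 50 after the start) are shown because their known response element could be looked for by its letters. Capitals mark TGCACNC or TGCGCNC, the core of the metal response element, on either strand.
Mt1, chr8:94178839-94179138, plus strand: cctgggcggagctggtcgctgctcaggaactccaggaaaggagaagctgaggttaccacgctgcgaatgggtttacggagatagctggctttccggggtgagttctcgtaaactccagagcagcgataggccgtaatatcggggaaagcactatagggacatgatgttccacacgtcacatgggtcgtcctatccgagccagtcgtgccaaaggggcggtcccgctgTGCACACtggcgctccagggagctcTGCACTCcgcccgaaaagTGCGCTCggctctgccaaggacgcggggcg
Mt2, chr8:94172368-94172667, plus strand: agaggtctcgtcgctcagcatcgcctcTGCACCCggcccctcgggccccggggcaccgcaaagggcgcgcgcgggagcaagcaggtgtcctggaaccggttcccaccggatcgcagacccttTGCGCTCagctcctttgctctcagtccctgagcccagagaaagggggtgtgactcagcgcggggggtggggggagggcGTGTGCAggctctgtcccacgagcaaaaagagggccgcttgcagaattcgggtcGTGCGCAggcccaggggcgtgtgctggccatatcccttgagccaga

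The core occurred at 3 positions in the Mt1 promoter and at 4 in that of Mt2. At least 1 was held by 25.7% of all 32851 promoters in the table and 4 or more by 0.517%. The palindromic core of the glucocorticoid response element occurred once in the Mt1 promoter and in 0.475% of all promoters, and were not in the windows of Fkbp5, Tsc22d3, Per1, Klf9 or Mt2. A match is a description of the letters only.

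Genes of macrophage surface receptors and of the circadian clock were also among the 65. Jaml read 13.24 and 13.57 with Nec-1 and 6.82 and 7.42 without, and no other Ifnar1-/- array without Nec-1 was above 7.46 (6.29, SE 1.1, adjusted p = 0.00565). In WT cells Jaml was high with IFNβ, at 12.09 and 12.25, and with Nec-1 it read 10.80 and 10.67 against 10.91 and 11.08 without. Mertk, a receptor for the uptake of apoptotic cells, read 14.04 and 13.96 against 11.08 and 11.35 (2.79, SE 0.46, adjusted p = 0.00414), and was the 1 macrophage marker of 11 that was called. When the LPS+zVAD+Nec-1 pair of Ifnar1-/- cells was left out, Spi1, the gene of the macrophage factor PU.1, was called lower as well (-0.86, adjusted p = 0.0225, against 0.202 with the pair). Flt3, a cytokine receptor listed as a dendritic cell marker, rose from 6.03 and 5.45 to 7.78 and 7.92, with 1 of the 2 arrays without Nec-1 above background (2.10, adjusted p = 0.0189), and was the 1 called of 5 such markers. A second retained Flt3 probe had a log2 fold change of 0.49 (SE 0.75). None of the neutrophil, B cell, T cell, NK cell, fibroblast, erythroid or megakaryocyte markers was called. Cd300lf, an inhibitory receptor for lipids on dying cells, rose by a log2 fold change of 2.95. The Ms4a family of tetraspan membrane proteins, chosen after its values were seen, had 6 of 16 measured members called higher and none lower. Its median was 0.30, and 1.06% of all genes were called higher. Ms4a4a read 15.16 and 15.09 against 13.40 and 13.40, while Ms4a8a was at least 3.24-fold higher because it was not well above background without Nec-1. Ms4a6d was measured by a GT-repeat probe.

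The 15 clock genes, also chosen after their values were seen, had a median of 0.42, and 1.06% of all genes rose. Of the 15 clock genes 4 rose and none fell. These were Per1, whose second probe had a value of -0.14, Cry1 (2.24), Cry2 (1.18) and Nfil3 (2.03). Cry1 and Cry2 are repressors that bind Per proteins, and a second retained Cry2 probe had a value of 0.47 (SE 0.24). Nfil3, a bZIP repressor, was measured by a GT-repeat probe. Per2 had a log2 fold change of 2.41 that did not pass (adjusted p = 0.35). Ddit4 read 15.06 and 15.41 with Nec-1 against 9.84 and 9.80 without, with no overlap (5.42, SE 1.24, adjusted p = 0.0278). It was the only one of 20 measured ATF4 stress genes that was called, and that list had a median of -0.01.

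Among the genes that fell were immediate early and NF-κB genes. Of 28 measured immediate early genes 3 fell, none rose and 25 had a negative sign, with a median of -0.67. Among all genes 0.545% fell. Egr2 read 11.35 and 11.13 with Nec-1 and 14.82 and 14.59 without (-3.46, SE 0.78, adjusted p = 0.0248), below the 13.24 to 15.04 of the 12 Ifnar1-/- arrays without Nec-1. Junb, an AP-1 subunit, read 9.27 and 9.45 against 11.02 and 11.15 (-1.73, SE 0.28, adjusted p = 0.00354), and 9.96 and 10.30 with IFNβ alone. Dusp5, a phosphatase of ERK, was not well above background with Nec-1 and was at least 1.8-fold lower. With both LPS+zVAD+Nec-1 arrays of Ifnar1-/- cells left out, 7 of the 28 genes fell, against 1.35% of all genes.

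Of 41 measured TNF and NF-κB inflammatory genes 3 fell and none rose, 37 had a negative sign, and the median was -1.54. Among all genes 0.545% fell. The 3 listed genes that fell were Bcl3, an IκB family co-regulator, Relb, a subunit of non-canonical NF-κB, and Plau, the urokinase protease. Bcl3 read 12.30 and 12.21 with Nec-1, 14.52 and 14.37 without it, and 12.71 and 12.92 with IFNβ alone (-2.19, SE 0.49, adjusted p = 0.0231). Relb read 11.14 and 11.66 against 13.72 and 13.60 (-2.27, SE 0.53, adjusted p = 0.0302), and 11.96 and 12.21 with IFNβ alone. For both genes the Nec-1 arrays lay below the arrays with IFNβ alone. Plau followed another order, since it read 10.32 and 10.06 with Nec-1, 12.49 and 12.72 without it and 12.70 and 12.79 with IFNβ alone.

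Among the cytokine genes of this list, Tnf, Il1b and Cxcl2 differed between the groups but did not pass the test with all arrays in the fit. Tnf read 9.91 and 9.96 with Nec-1, 13.31 and 13.40 without it, and 9.85 and 10.36 with IFNβ alone. The difference of -3.42 (SE 1.12) had an adjusted p of 0.181, and 0.00126 with the LPS+zVAD+Nec-1 pair of Ifnar1-/- cells left out, on which Tnf was 15.96 and 9.99. Il1b read 5.61 and 5.93 against 11.87 and 11.03, and 7.59 and 8.01 with IFNβ alone, with adjusted p of 0.166 and 0.000283 in the same order. For both genes the groups did not overlap, and Il1b was above background on 1 of the 2 Nec-1 arrays. The chemokine Cxcl2 read 9.77 and 9.09 with Nec-1, 12.44 and 11.28 without it and 6.73 and 6.73 with IFNβ alone, and did not pass in either fit (adjusted p = 0.675 and 0.376). Il6 (log2 fold change 0.37), Ccl3 (-0.38), Ccl4 (0.04) and Ccl7 (-0.03) changed less. Values were -2.52 for Il1a, -2.35 for Cxcl1 and -5.69 for Cxcl3, and none of these genes passed in either fit. With that pair left out 14 of the 41 genes fell, against 1.35% of all genes.

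**Figure D4:**
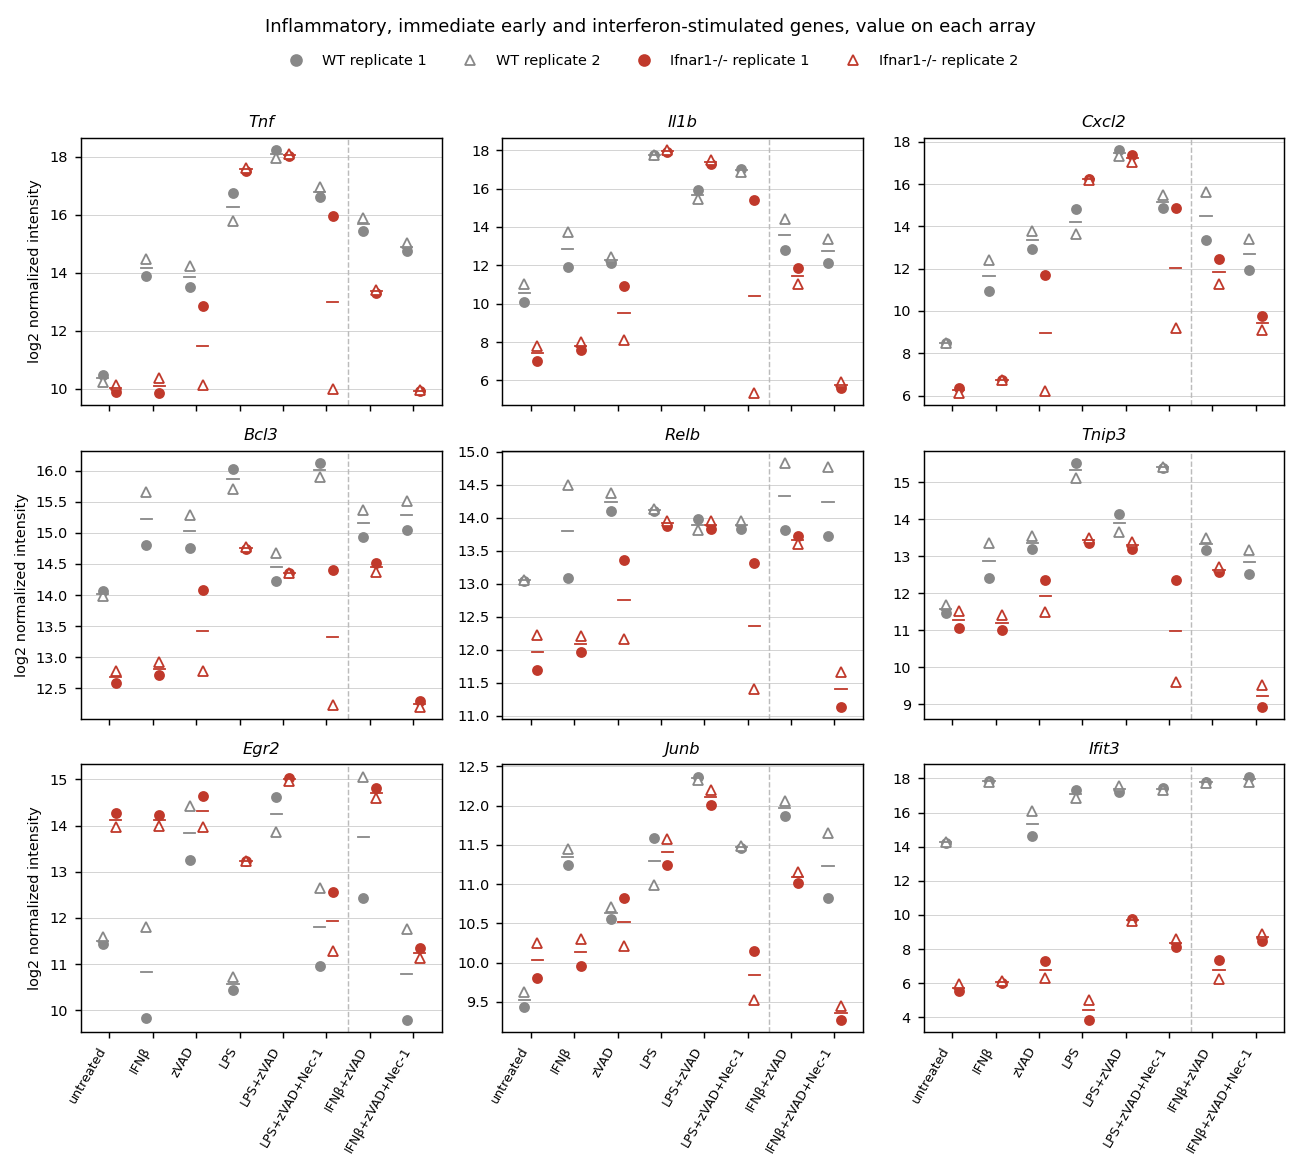
Log2 normalized intensity of 9 inflammatory, immediate early and interferon-stimulated genes on all 32 arrays, with colours and symbols for genotype and replicate and bars at the mean of 2 arrays. In Ifnar1-/- cells Tnf (9.91 and 9.96) and Bcl3 (12.30 and 12.21) with IFNβ+zVAD+Nec-1 lie near their levels with IFNβ alone, and Tnf, Il1b and Cxcl2 differ widely between the 2 Ifnar1-/- LPS+zVAD+Nec-1 arrays.

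The comparison of zVAD plus IFNβ with IFNβ alone is given beside these values, with the reservation that it shares the IFNβ+zVAD arrays. Its median over the same 41 genes was 1.63, with 36 positive, but 0 listed genes passed the test. In that comparison 1 of 15970 genes was called (0.00626%; 374 at an unadjusted p under 0.05), a RIKEN clone. Tnf changed by 3.25 and Il1b by 3.65 there, neither passing. Irf1, a transcription factor induced by interferons and by NF-κB, read 13.19 and 13.30 with Nec-1, 14.88 and 14.98 without it and 13.60 and 13.68 with IFNβ alone (-1.68, adjusted p = 0.0122). The 65 genes that rose had a median of -0.16 for zVAD, and the 87 that fell one of 0.26.

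Other genes that fell included Tnip3, which read 8.94 and 9.52 against 12.56 and 12.70 (-3.40, SE 0.56, adjusted p = 0.00402). Clec7a, the β-glucan receptor Dectin-1, read 15.77 and 15.69 against 17.17 and 16.87 (-1.29, adjusted p = 0.00491), so its change was small but in a bright gene. Ccr3, a chemokine receptor, Kcnn4, a calcium-activated potassium channel, and Olfm1, a secreted olfactomedin, fell by 1.98, 1.77 and 1.56 on the log2 scale. Some called genes were well above background in neither group, 7 of the 87 and 4 of the 65 that rose on a probe without the repeat. In 27 of the 87 the gene was well above background on neither Nec-1 array. Among these were Chrng, a subunit of the muscle acetylcholine receptor, and Gpr35, an orphan-class receptor, at least 4.56-fold and 2.99-fold lower, but only 1 of the 2 arrays without Nec-1 measured either gene. Rasl10b and Cass4 were likewise not above background with Nec-1, at least 3.36-fold and 2.29-fold lower. Artn, Cmklr1, Ubqln5, Aire and Tex45 were not above background with Nec-1 either, with bounds of 1.13-fold to 1.96-fold. Only 1 of the 2 arrays without Nec-1 measured each of them, so these bounds rest partly on an array near background.

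No gene of the RIPK1 pathway itself passed the test. Of 26 measured necroptosis and RIPK1 complex genes 0 were called by limma in either direction, and their median was -0.10. Ripk1 read 11.91 and 12.14 with Nec-1 against 11.94 and 11.97, and the log2 fold changes of Ripk3, Mlkl, Zbp1 and Casp8 were -0.38, 0.00, -0.26 and -0.27. Cflar, the gene of the caspase-8 regulator cFLIP and an NF-κB target, had a value of -0.86 (adjusted p = 0.648). Transcripts do not report kinase activity, so inhibition of RIPK1 by Nec-1 was not measured here.

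Gene lists for other actions of the compound were examined in the same fit. In the tryptophan pathway Kyat1, a kynurenine aminotransferase, rose from 10.70 and 10.47 to 11.82 and 11.88 (1.26, adjusted p = 0.024), and it was the only one of 11 measured genes that was called, with a list median of 0.08. Il4i1, an amino acid oxidase that also acts on tryptophan, read 8.22 and 8.91 with Nec-1, 12.28 and 11.89 without it and 11.02 and 11.05 with IFNβ alone. Its difference of -3.52 was the largest of the list and had an adjusted p of 0.336, and of 0.0327 with the LPS+zVAD+Nec-1 pair of Ifnar1-/- cells left out. Ido1, the enzyme that Nec-1 is known to inhibit, had no retained probe. None of 10 measured aryl hydrocarbon receptor genes was called, with a median of -0.38, although Ahrr, a repressor of that receptor, read 10.89 and 11.27 against 12.68 and 12.72 (-1.62, adjusted p = 0.149). Cyp1a1, its best-known target, had no retained probe, and Cyp1b1 had a value of 0.60. No gene was called among 12 other xenobiotic genes, 23 NRF2 genes, 16 unfolded protein response genes, 14 heat shock genes, 8 LXR targets, 23 glycolysis and hypoxia genes, 15 p53 targets, 28 cell cycle genes and 11 alternative activation genes, whose medians lay between -0.43 and 0.02. Nqo1 and Hmox1, both NRF2 targets, had values of -0.65 and 0.60. With that pair left out, 4 genes of these lists were called. Prdx1, a peroxiredoxin of the NRF2 list (-0.63, adjusted p = 0.046), and Plk2, a polo-like kinase of the p53 list (-1.90, adjusted p = 0.0348), were lower. Trp53inp1, a p53 target (1.52, adjusted p = 0.00574), and the chemokine Ccl17 of the alternative activation list (2.02, adjusted p = 0.00531), not above background without Nec-1, were higher. The 78 mitochondrial ribosome, 79 cytosolic ribosome and 79 respiratory chain genes had 0 calls and medians of 0.02, -0.08 and -0.03. With the pair left out, Mrpl54 of the mitochondrial ribosome was called lower (-0.71, adjusted p = 0.0151). The 29 sterol synthesis genes had 0 calls as well, but 24 were negative, with a median of -0.48.

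Interferon-stimulated genes had a median of 0.03 over 39 measured genes, but members went both ways, 21 with a positive and 18 with a negative sign. Ifit3 was the 1 called, rising from 7.35 and 6.25 to 8.50 and 8.87 (1.88, SE 0.44, adjusted p = 0.0302), still far below the 14.22 to 18.11 of the WT arrays. Oasl1 (2.75), Ifit1 (2.53), Rsad2 (2.28) and Isg15 (1.59) had positive values that did not pass, with or without the LPS+zVAD+Nec-1 pair of Ifnar1-/- cells. The guanylate-binding protein genes Gbp2 and Gbp3 had values of -1.84 and -1.37 that did not pass (adjusted p = 0.65 and 0.72), and were called lower with the pair left out (adjusted p = 0.00733 and 0.0202). Gbp2 read 10.48 and 10.67 with Nec-1, 12.61 and 12.21 without it and 10.58 and 10.65 with IFNβ alone. Ifnb1 read 8.35 and 8.11 with Nec-1, 6.74 and 4.57 without it, of which 1 was above background, and 3.15 and 2.71 with IFNβ alone, and did not pass (2.57, adjusted p = 0.331).

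The same addition of Nec-1 was compared in WT cells, with which no array is shared. With IFNβ+zVAD in WT cells 0 of 15969 genes were called (limma, 0%; 615 at an unadjusted p under 0.05). The 65 genes that rose in Ifnar1-/- cells without a repeat probe had a median of 0.00 in WT, and 61 of them lay within 0.5 of no change. Fkbp5 read 11.08 and 10.91 with Nec-1 and 10.81 and 10.81 without in WT cells. The genotypes differed for this gene by 4.67 (SE 0.55, adjusted p = 0.00138), the only one of 15969 genes for which the difference was called (0.00626%; 851 at an unadjusted p under 0.05). When both LPS+zVAD+Nec-1 arrays of Ifnar1-/- cells were left out, the difference was called for 104 genes (0.651%). Of these, 52 were among the 105 genes on GT-repeat probes, 14 among the 87 that fell and 25 among the 65 genes, including Zbtb16, Jaml, Per1, Mt2 and Mertk, while Tsc22d3, Klf9 and Ddit4 were not called. When replicate 2 of the WT IFNβ+zVAD+Nec-1 group was left out, 209 genes were called in WT and 155 for the difference.

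The 87 genes that fell had a median of -0.14 in WT, with 70 of the same sign, and 73 lay within 0.5 of no change. Egr2 in WT read 9.79 and 11.77 with Nec-1 and 12.43 and 15.06 without, a value of -2.96 that did not pass (adjusted p = 0.912), and its difference between genotypes was -0.50 (SE 1.1). Plau changed by -1.84 in WT and by -2.42 in Ifnar1-/- cells. The TNF and NF-κB list had a median of -0.64 in WT, with 39 of 41 negative and 0 called, and the difference between the genotypes was called for none of its genes and for 2 with that pair left out. WT and Ifnar1-/- cells were on separate slides, so genotype and slide cannot be told apart. Each slide held arrays with and without Nec-1, but the main fit compared group means and did not use this pairing.

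**Figure D5:**
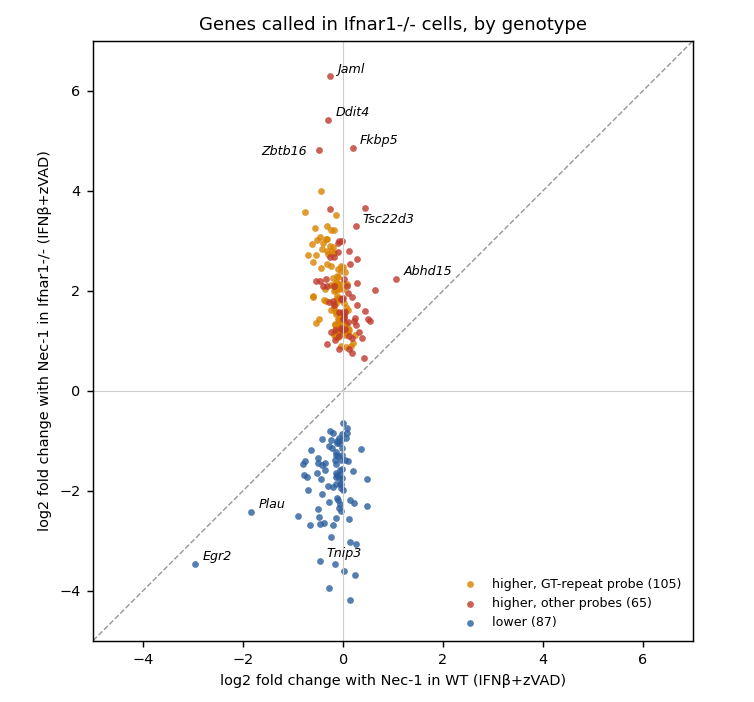
Log2 fold change with Nec-1 in IFNβ+zVAD cells for the genes called in Ifnar1-/- cells, in WT (horizontal) and in Ifnar1-/- (vertical), with the dashed line where both are equal. Most points lie along the vertical line of no change in WT, such as Fkbp5 at 0.19 and 4.86, and Egr2 (-2.96 and -3.46) and Plau (-1.84 and -2.42) lie near the dashed line.

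With LPS plus zVAD, Nec-1 changed 3119 of 15970 genes in Ifnar1-/- cells (19.5%; 11.9% higher and 7.64% lower) and 4553 in WT cells (28.5%; 18.6% higher and 9.91% lower). With the Ifnar1-/- LPS+zVAD+Nec-1 pair left out, 20.5% were higher and 11.6% lower in WT cells. The 65 genes had a median of 1 in Ifnar1-/- cells and of -0.02 in WT cells under LPS+zVAD. This Ifnar1-/- group holds the library that goes against its label, so its arrays are given apart. Leaving that library out gave 1512 calls in Ifnar1-/- cells, and leaving out LPS+zVAD replicate 1 gave 1024. Replicate 1 of LPS+zVAD+Nec-1 was higher than all 12 Ifnar1-/- arrays without Nec-1 for 30 of the 65 genes (46.2%; 8.62% of all genes), and replicate 2 for 49 (75.4%; 16.7% of all genes). On replicate 1 Fkbp5 was 13.85, Tsc22d3 14.40, Per1 13.30, Klf9 13.17 and Mt2 18.25, each above every Ifnar1-/- array without Nec-1. Zbtb16 at 7.73, Jaml at 7.34 and Ddit4 at 10.26 were within the range of those arrays on replicate 1 and at 12.59, 13.17 and 15.32 on replicate 2. In WT cells given LPS+zVAD+Nec-1 Fkbp5 lay between 10.56 and 11.53, and 11.53 was the highest value of the WT arrays.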

How the data were processed

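RNA of 32 cultures (RNeasy kit) was labelled with Cy3 and hybridised to 1-colour Agilent mouse arrays, 8 to a slide on 4 slides, each slide holding 1 genotype and replicate number with all treatments. The deposited scanner files (Feature Extraction 11.5.1.1, per the file headers) give background-subtracted intensity. The authors' table of log2 values, for which limma is named in the submitters' notes, was used as an alternative only. Intensities were log2-transformed, quantile-normalized and averaged over spots of a probe. Outlier spots were left out. Probes well above background on at least 50% of arrays were retained (21415 of 33009 named probes, of 55681), and the brightest represented each of 15970 genes. A single limma 3.58.1 fit (R 4.3.3) of 16 group means, with at least 16 residual degrees of freedom, gave log2 fold changes, standard errors and Benjamini-Hochberg adjusted p-values, called under 0.05. One gene had no value for a WT group. The code was tested on simulated data. Named genes were the 12 largest rises and falls with the same sign in both replicates, fixed genes, and up to 4 per list; others described were chosen after their values were seen. Members, lists and rules were chosen with earlier results of these data known. Nothing says that replicates are separate animals, so p-values measure the spread between these samples, which may be technical. Replicates 1 and 2 share a number and a slide, with 2 pairs per comparison. The number of arrays limits the precision. One gene that the naming rule gave is not reported here.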

Additional observations from a re-analysis of the deposited data

Results flagged for a closer look

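The change of Fkbp5 with Nec-1 under IFNβ+zVAD differed between the genotypes by 4.67 on the log2 scale (SE 0.55, adjusted p = 0.00138, limma, a contrast of the 2 contrasts). It was 4.86 in Ifnar1-/- cells, where both arrays with Nec-1 were above both arrays without it, as in 24.1% of all genes. In WT cells it was 0.19 and was not called.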

How the results depend on the processing

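No named gene that was called changed sign under any setting tried. The 257 genes called with Nec-1 in Ifnar1-/- IFNβ+zVAD cells became 5 with only the compared arrays in the fit, 754 with array weights, 119 without genes on GTGTGT probes and 511 when both LPS+zVAD+Nec-1 arrays of Ifnar1-/- cells, or their replicate 2 alone, were left out. The last setting and the removal of the GTGTGT genes were chosen after seeing the data. Leaving out 1 array gave 34 to 245. With the slide as a replicate block, 666 genes were called there, 4 in WT, 57 for the difference between genotypes, 5668 and 6698 for LPS+zVAD in Ifnar1-/- and WT cells and 3 for zVAD; deviations on a slide correlated by 0.353 (Ifnar1-/-) and 0.617 (WT) over genes, and the samples share only a number and a slide. In WT the count of 0 became 2 with normexp, 23 without the filter on dim probes, 2 with the authors' table and 6 to 209 when 1 array was left out (209 when replicate 2 of the WT Nec-1 group was dropped). The difference between genotypes, 1 gene, became 23 with normexp, 14 without the filter, 2 with the mean of probes, 17 with the authors' table, 2 with only the compared arrays, 25 with weights, 104 with those arrays or their replicate 2 left out, and 1 to 155 with 1 array left out. With LPS+zVAD, counts became 0 in both genotypes with only the compared arrays and 1040 in Ifnar1-/- cells with weights. With 1 array left out they were 1024 to 4608 and, in WT, 2590 to 4336, and 1512 without Ifnar1-/- LPS+zVAD+Nec-1 replicate 2. For zVAD the count of 1 became 0 with the percentile shift, with only the compared arrays or genotype, 11 without the filter, and 0 to 50 with 1 array left out (50 without IFNβ+zVAD replicate 1). For IFNβ the count of 0 became 1 with normexp, the authors' table or only this genotype, 11 without the filter, 5 with weights and 0 to 2 with 1 array left out. Of 34 named genes called, 30 no longer passed with only the compared arrays, where residual degrees of freedom are few, and 27 and 28 without Ifnar1-/- IFNβ+zVAD replicate 2 or IFNβ+zVAD+Nec-1 replicate 1. The cause of the other changes was not tested. Signal over background limits the genes near it, most on Ifnar1-/- IFNβ+zVAD+Nec-1 replicate 1 (44.5% of probes above).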
